A study of Drosophila melanogaster with 33 samples.

Results

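The sites described here are S2 peaks of Rpb3, a subunit of RNA polymerase II, that overlapped by 1 bp or more no peak of HA-tagged AbdA and no S2 peak of M1BP, GAF, dRing or E(z). They were chosen by measured values, the overlaps of these 5 peak lists with the S2 Rpb3 list, so their lack of these factors is a description and not a result. They numbered 1595 of the 9314 Rpb3 peaks on X, 4 and the arms 2L, 2R, 3L and 3R, and are called factor-free Rpb3 sites below. The whole S2 Rpb3 list held 9370 peaks. AbdA is the Hox protein Abdominal-A, and its binding was measured with an antibody to the HA tag in the S2-AbdA line alone. The other 4 excluding lists came from S2 cells without the transgene. The name "factor-free" therefore refers to S2 chromatin for M1BP, GAF, dRing and E(z). In S2-AbdA cells, 385 of the 1595 sites had a peak of at least 1 of these 4 factors (24.1%). The background of 73.2% over all Rpb3 peaks of the arms holds peaks that the rule removed for these factors in S2 cells.

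The lines were S2-DRSC cells, a wild-type Drosophila melanogaster line derived from late embryos, and S2-DRSC-HA::AbdA cells, which carry a stably transfected HA::AbdA transgene. Cells of both lines were kept in 10 µM Cu2SO4, as the labels write copper sulphate, for 24 h, the controls included. The sources used here do not give the promoter of the transgene or say whether the line is 1 clone. Each of the 6 factors had 2 ChIP-seq replicates per line. The authors' peak lists give 1 list for both replicates, so no value per replicate and no replicate error can be given, and no difference between the lines was tested. S2 ChIP samples of the 6 factors had input code B. In S2-AbdA cells the HA and GAF samples had code C and the other 5 factors had code D, so line and input cannot be told apart. The lists differed in length on the arms, most for Ser2P (1670 peaks in S2 and 3629 in S2-AbdA cells) and GAF (5407 and 9472). Read depth is unknown. The intervals given are exact Clopper-Pearson 95% intervals of a share over peaks, and they cover counting error only. Cell identity was not checked, since no expression values were analysed here.

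Many fly genes hold polymerase that has started transcription and then pauses just downstream of the start site. Rpb3 is found in polymerase of every stage, and the labels use it for poised polymerase, whereas phosphorylation of serine 2 in the tail of the largest subunit (Ser2P) accumulates on elongating polymerase. GAF, which binds GAGA elements, and M1BP, which binds the Motif 1 element, are known at different classes of paused promoters in flies. The Polycomb group keeps genes repressed. Its member dRing is a ubiquitin ligase found in PRC1, whereas E(z) methylates histone H3 as the catalytic subunit of PRC2.

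The rule removed most Rpb3 peaks through AbdA. HA-AbdA overlapped 5931 of the 9314 arm peaks and left 3383. M1BP then removed 1048, GAF 628, dRing 46 and E(z) 66. Of the peaks left out, 5053 overlapped at least 2 of the 5 lists, 1376 overlapped HA-AbdA alone, 754 M1BP alone and 444 GAF alone. These last 3 groups are the peaks set beside the factor-free sites below.

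The edge of the rule was sharp for few sites. The member nearest to an excluding peak, 3R 9482583 to 9483357, lay 2 bp from HA-AbdA and had an Rpb3 score of 14.2. The next pair lay 3 bp from M1BP (X 15881194 to 15883051, score 16.6) and 4 bp from GAF (2L 18629865 to 18630206, score 17.0). Just outside the rule, 3 Rpb3 peaks were left out by 2, 5 and 10 bp of HA-AbdA overlap, at X 13292509 (score 14.9), 2R 3338900 (score 15.8) and 2R 8026920 (score 18.8). In all, 29 sites (1.82%) had an excluding peak within 50 bp, and 24 of the other 7719 peaks were left out by 50 bp of overlap or fewer.

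Factor-free Rpb3 sites were mostly weak peaks. The score is the authors' own value per peak, of unstated unit, and was used only to order peaks within a list. The median score was 19.8 (quartiles 12.7 and 35.0), against 55.9 (24.6 and 113.5) at the other Rpb3 peaks of the arms. When all arm peaks were ordered by score and cut into 5 equal parts (quintiles, 1 the lowest), the sites made up 36.1% of the lowest quintile (95% interval 33.9 to 38.4%) and 4.35% of the highest (3.47 to 5.38%). Of the sites, 42.2% lay in the lowest quintile. The strongest nevertheless stood near the head of the Rpb3 list: X 6493892 to 6494442 had a score of 306 and rank 13 of 9314. The sites were also narrower, with a median width of 498 bp against 634 bp. A narrow peak has fewer bases with which to touch another list, so width and score are bound up with the rule and are given as a description.

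**Figure D1:**
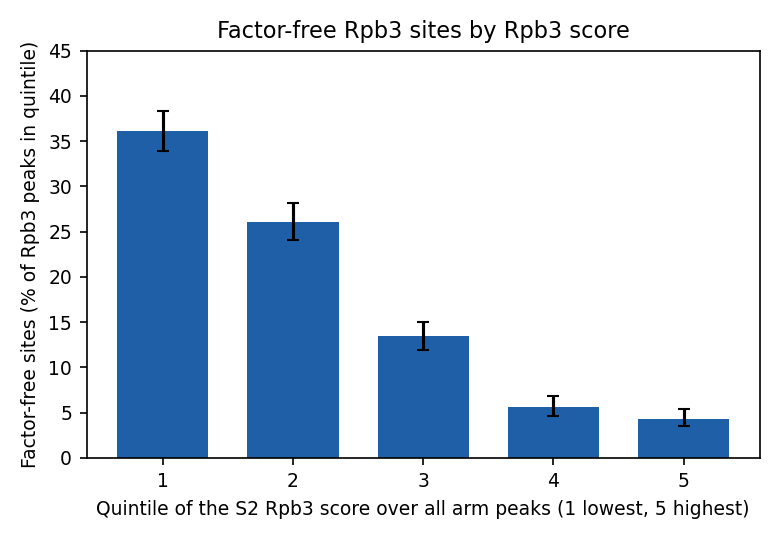
Share of S2 Rpb3 peaks on the arms that were factor-free, per quintile of the Rpb3 score (quintile 1 holds the lowest scores), with exact Clopper-Pearson 95% intervals as error bars. The share goes from 36.1% in the lowest to 4.35% in the highest quintile.

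The sites lay on all 6 arms, and their share was largest on chromosome 4 and next on X. They made up 53 of 89 Rpb3 peaks on chromosome 4 (59.6%, interval 48.6 to 69.8%) and 366 of 1577 on X (23.2%, 21.1 to 25.4%). On 2L, 2R, 3L and 3R the share ran from 14.0% to 16.5%. The small chromosome 4 and the X had fewer Rpb3 peaks with HA-AbdA, 27.0% and 54.4%, whereas the other arms had 64.6% to 67.1%. Chromosome 4 was also low for M1BP (18.0%), GAF (10.1%) and E(z) (13.5%), and X for dRing (8.05%) and E(z) (15.2%). The other arms had 40.3 to 44.9% with M1BP and 30.1 to 34.6% with GAF. They had 12.2 to 14.6% with dRing and 24.4 to 27.3% with E(z). Since the rule uses all 5 lists, these differences enter the share directly. Of the 10 sites with the highest score, 9 lay on X. The same was true of 7 of the 10 highest other Rpb3 peaks, but among the 100 highest of each group X held 24 sites and 43 others. Over all factor-free sites the X share was 22.9% (interval 20.9 to 25.1%), against 16.9% of all Rpb3 peaks and 15.7% of the others. Rpb3 peaks with M1BP alone had 23.1% on X (20.1 to 26.3%) and those with GAF alone 20.3% (16.6 to 24.3%). Both intervals overlapped that of the sites. Rpb3 peaks with HA-AbdA alone stood at 17.7% (15.7 to 19.8%).

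The first question was whether these sites carried elongating polymerase in S2 cells. A Ser2P peak overlapped 166 of them (10.4%, interval 8.95 to 12.0%), against a background of 15.8% over all Rpb3 peaks of the arms. In the groups most like them the share was 13.3% at Rpb3 peaks with HA-AbdA alone, 7.29% with M1BP alone and 8.56% with GAF alone. The nearest S2 Ser2P peak lay a median of 12257 bp from a site, and 1100 sites had none within 5 kb. Other settings also redrew the set of sites. With peak centres within 250 bp in place of overlap, the share was 3.53% of 4504 sites (background 5.42%). With the higher-scoring 50% of each list it was 1.21% of 992 sites (background 2.18%).

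In S2-AbdA cells a Ser2P peak overlapped 651 of the sites (40.8%, interval 38.4 to 43.3%), against a background of 39.8%. That share was 37.6% at Rpb3 peaks with HA-AbdA alone, 31.2% with M1BP alone and 23.4% with GAF alone. By line, 159 sites had Ser2P in both lines (9.97%, background 15.1%), 492 in S2-AbdA cells alone (30.8%, background 24.8%), 7 in S2 cells alone (0.439%, background 0.752%) and 937 in neither (58.7%, background 59.4%). Of the 166 sites with Ser2P in S2 cells, 95.8% also had it in S2-AbdA cells, close to the background of 95.2%. The longer Ser2P list of the S2-AbdA line bears on these counts. With its 1670 highest-scoring arm peaks, as many as the S2 list has there, 17.4% of the sites had Ser2P, against 19.7% of all Rpb3 peaks. In the settings that redrew the set of sites, the share was 9.97% of 4504 sites with peak centres within 250 bp (background 11.7%). With the higher-scoring 50% of each list it was 12.9% of 992 sites (background 18.4%).

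The Ser2P share depended on the strength of the Rpb3 peak, and in a different way than at other Rpb3 peaks. In the lowest quintile of Rpb3 score, 37.6% of factor-free sites had an S2-AbdA Ser2P peak (interval 33.9 to 41.4%), against 20.2% of the other Rpb3 peaks there (17.9 to 22.6%). In quintile 2 these shares were 47.9% and 30.1%. Median widths in the lowest quintile were similar, at 455 bp and 428 bp. In the highest quintile the order was the opposite, with 28.4% of sites (18.9 to 39.5%) and 59.5% of the others (57.2 to 61.8%).

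The like groups stood between these values in most cases. In the lowest quintile S2-AbdA Ser2P overlapped 23.7% of Rpb3 peaks with HA-AbdA alone, 27.8% with M1BP alone (interval 17.9 to 39.6%, which overlapped that of the sites) and 14.4% with GAF alone. In the highest it overlapped 54.2%, 49.0% and 37.9%, the last with an interval (29.6 to 46.7%) that overlapped that of the sites. In the S2 list the lowest quintile had 4.75% of sites and 3.36% of others with Ser2P, with intervals that overlapped, and the highest had 12.3% and 30.9%. Between these ends the sites stood above the others in quintile 2 (12.8%, interval 9.92 to 16.1%, against 7.77%, 6.41 to 9.31%), and in quintile 3 (19.6% against 14.5%) with intervals that overlapped. In quintile 4 they stood at 12.4% and 21.3%. The lower S2 share over all sites thus did not hold in the 3 lower quintiles, where most of the sites lay. Peaks with M1BP alone and GAF alone had 15.7% and 16.7% in the highest quintile, near the sites. With the S2-AbdA Ser2P list limited to the length of the S2 one, a setting chosen after seeing the data, the lowest quintile had 12.2% and 7.48% and the highest 18.5% and 34.3%, so the order of sites and others was the same at both ends. GAF-alone peaks stood at 18.2% in the highest quintile of that setting, close to the sites. These are descriptions of single lists, without a test.

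**Figure D2:**
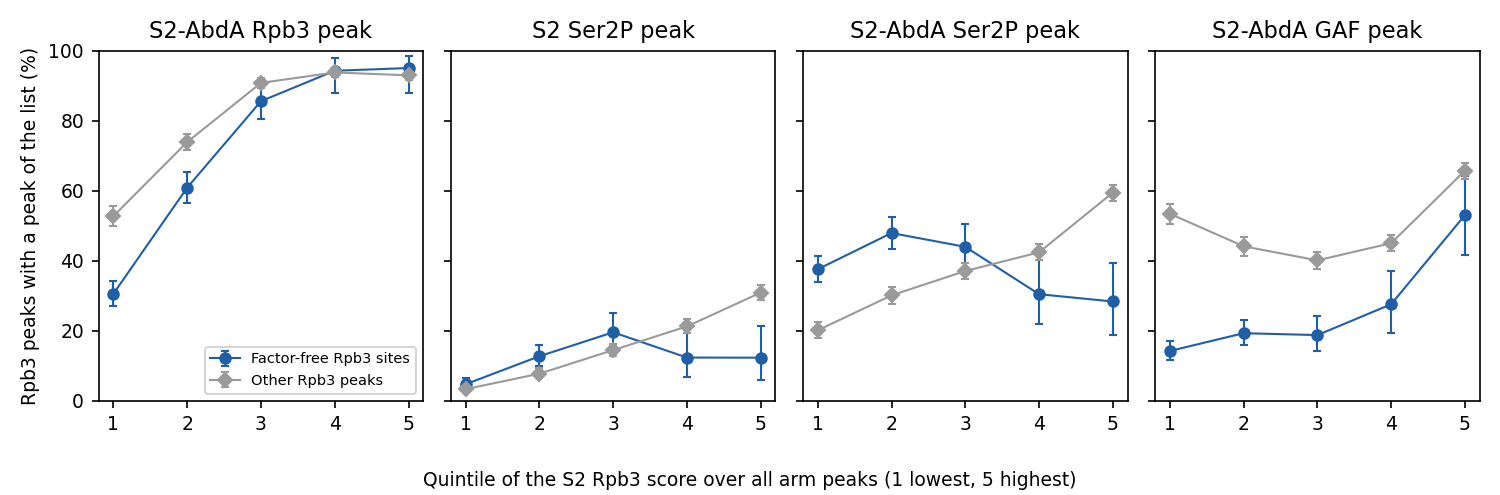
Share of factor-free Rpb3 sites (blue circles) and of the other S2 Rpb3 peaks of the arms (grey diamonds) with a peak of 4 lists, per quintile of the S2 Rpb3 score, with exact 95% intervals. For S2-AbdA Ser2P the sites stand above the others in the lowest quintile (37.6% against 20.2%) and below them in the highest (28.4% against 59.5%).

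Ser2P peaks were short at the sites of the highest quintile and wide at the rest. Among sites with S2-AbdA Ser2P in the lowest quintile of Rpb3 score, the Ser2P peak had a median width of 3046 bp, and in the highest quintile it had 312 bp, where 15 of 23 were shorter than 1 kb. Quintiles 2, 3 and 4 had medians of 3286 bp, 3837 bp and 2703 bp. The other Rpb3 peaks showed the same order, with 2508 bp and 854 bp. Sites lay wholly within their S2-AbdA Ser2P peak in 370 of 651 cases (56.8%, interval 52.9 to 60.7%), against 27.9% (26.3 to 29.5%) of the other Rpb3 peaks that overlapped Ser2P. In the lowest quintile these shares were 58.1% (51.8 to 64.3%) and 45.4% (39.0 to 51.9%), with intervals that overlapped and with wider Ser2P peaks at the sites. In the S2 list they were 30.1% and 15.7% over all quintiles.

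The Ser2P domains over these sites were also set beside the other lists. The 651 sites lay on 525 S2-AbdA Ser2P peaks, whose median width was 2745 bp, against 1350 bp for the list on the arms. Of these domains 96 held more than 1 site, and 255 (48.6%) also overlapped an Rpb3 peak that was not factor-free. HA-AbdA overlapped 246 of the 525 domains (46.9%) elsewhere than at the site, and S2 M1BP overlapped 224 (42.7%). Over all S2-AbdA Ser2P peaks of the arms these shares were 58.3% and 48.0%. The rule used both lists, so the lower shares are partly built in, and for M1BP the intervals overlapped (38.4 to 47.0% and 46.3 to 49.6%).

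**Figure D3:**
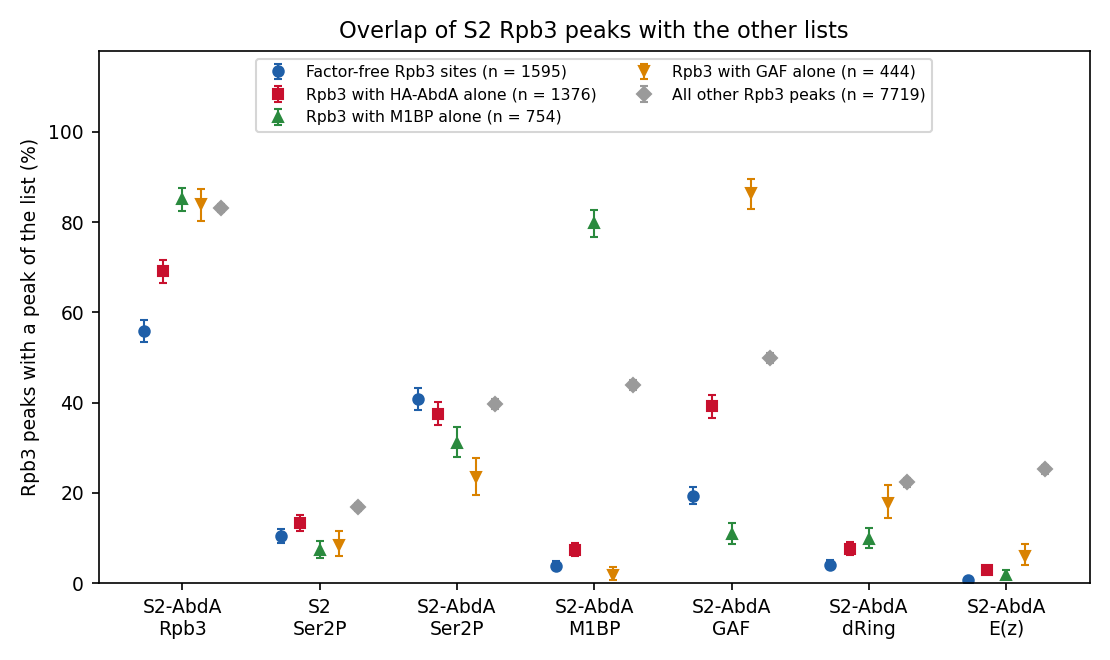
Share of S2 Rpb3 peaks on the arms with a peak of each of the 7 lists on the horizontal axis, for factor-free sites, Rpb3 peaks with HA-AbdA, M1BP or GAF alone, and all Rpb3 peaks that are not factor-free, with exact 95% intervals. The factor-free sites have the lowest share with S2-AbdA Rpb3 (55.9%), and for S2-AbdA Ser2P they stand at 40.8%. The groups are not matched for Rpb3 score.

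The comparison of the lines asked which sites were also listed for Rpb3 in S2-AbdA cells. An S2-AbdA Rpb3 peak overlapped 892 of the 1595 sites (55.9%, interval 53.4 to 58.4%), against a background of 78.5%. Its share was 69.1% at Rpb3 peaks with HA-AbdA alone, 85.1% with M1BP alone and 84.0% with GAF alone. These groups had higher median Rpb3 scores, at 26.7, 51.6 and 55.0, against 19.8 at the sites. The 703 sites with no S2-AbdA Rpb3 peak (44.1%, background 21.5%) had a median score of 14.0 in the S2 list, and the 892 with one had 28.6. Median widths were 496 bp and 500 bp. The lowest score of the S2 list was 7.63.

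The share followed the score closely. In the lowest quintile, 30.6% of sites had an S2-AbdA Rpb3 peak (interval 27.1 to 34.2%), against 52.8% of other Rpb3 peaks (49.9 to 55.6%). In quintile 3 the shares were 85.6% and 90.8%, and in the highest 95.1% (87.8 to 98.6%) and 93.0% (91.7 to 94.1%). In the highest quintile these intervals overlapped. Rpb3 peaks with HA-AbdA, M1BP or GAF alone had 39.4%, 47.2% and 55.6% in the lowest quintile, with intervals above that of the sites. In quintile 2 HA-AbdA alone had 66.6% (61.4 to 71.5%), against 60.9% of sites (56.4 to 65.3%), M1BP alone 72.1% and GAF alone 80.5%. In quintile 3 the groups had 91.2%, 92.9% and 91.0%, and in the highest 90.8%, 93.1% and 95.5%. Their intervals there overlapped those of the sites. Among the 703 absent sites, 166 had an S2-AbdA Rpb3 peak within 500 bp, and the median gap was 1756 bp.

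Named examples show both cases. The 10 highest-scoring sites all had an S2-AbdA Rpb3 peak. The highest without one was 3L 13473272 to 13473902 (score 210), which in S2-AbdA cells had a GAF peak (score 335), a dRing peak and the edge of a Ser2P domain 6081 bp wide. That Ser2P score, 55.8, was the highest of any Ser2P peak at these sites in that line. The next, X 6169950 to 6170948 (score 207), had Ser2P domains of 3822 bp in S2 and 3756 bp in S2-AbdA cells and an M1BP peak in S2-AbdA cells (score 279). The remaining 3 of the 5 named lay at 3R 12903334 (score 155, with GAF and dRing in S2-AbdA cells), 2R 2767929 (score 135, with Ser2P and E(z)) and X 11463789 (score 109.9, with M1BP). Each of these 5 sites had an S2-AbdA peak of another factor, whereas 360 of the 703 had no peak of any of the 7 lists (Ser2P of S2 cells and the 6 lists of S2-AbdA cells other than HA-AbdA). GAF lay at 11.7% of the 703, against 25.4% of the 892 with S2-AbdA Rpb3. M1BP lay at 1.85% against 5.27% and dRing at 1.14% against 6.28%. The order was the same over all Rpb3 peaks of the arms without and with S2-AbdA Rpb3. There GAF stood at 29.7% and 48.8%, M1BP at 22.6% and 41.0% and dRing at 6.93% and 22.6%.

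Among M1BP, GAF, dRing and E(z), GAF was the one most often listed at the sites in S2-AbdA cells. Its peaks overlapped 309 sites (19.4%, interval 17.5 to 21.4%), against a background of 44.7%. That background holds peaks that the rule removed for GAF in S2 cells. Over the like groups the share was 39.2% at Rpb3 peaks with HA-AbdA alone and 10.9% with M1BP alone. The sites had no GAF peak in S2 cells by the rule, and at 8 of the 309 the S2-AbdA GAF peak reached an S2 GAF peak beside the site. With the GAF list limited to the 5407 highest-scoring arm peaks, the length of the S2 list, 7.52% of sites had GAF (background in that setting 32.2%). The S2-AbdA GAF sample had another input code than the other factors of its line, and the part of list length and input in these counts cannot be told apart from that of the line. The GAF lists also differed in make-up, with 23.7% of S2 and 0.609% of S2-AbdA GAF peaks outside the arms. The cause of this difference was not tested.

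In S2-AbdA cells GAF was listed more often at sites of high Rpb3 score. It overlapped 14.3% of sites in the lowest quintile of Rpb3 score and 53.1% (interval 41.7 to 64.3%) in the highest, and 7 of the 10 highest-scoring sites had it. Among other Rpb3 peaks the share was 53.4% in the lowest and 65.8% in the highest quintile. Sites with GAF had an S2-AbdA Rpb3 peak in 73.5% of cases, and sites without it in 51.7%. Over all Rpb3 peaks of the arms the order was the same, at 85.7% with GAF and 72.6% without. The median Rpb3 score was 25.1 at sites with GAF and 19.8 over all sites. Sites with GAF had Ser2P in S2-AbdA cells in 21.4% of cases, and sites without GAF in 45.5%. Both were listed at 66 sites. Among the other Rpb3 peaks Ser2P was listed at 40.4% with GAF and 38.8% without. Over all Rpb3 peaks of the arms it was listed at 39.0% with GAF and 40.5% without. Rpb3 peaks with GAF alone in the S2 lists had S2-AbdA Ser2P in 23.4% of cases, near the sites with GAF.

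The strongest sites combined several of these features. X 6493892 to 6494442 (score 306) had an S2-AbdA GAF peak with a score of 358, and Ser2P peaks of 314 bp in S2 and 302 bp in S2-AbdA cells. X 17400778 to 17401333 (score 288) likewise had Ser2P in both lines and GAF with a score of 371, the highest GAF score at any of the sites. X 6892391 to 6893107 (score 302) had Ser2P in both lines, GAF (score 104) and dRing (score 9.25).

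The others of the 10 had between 1 and 4 of the 7 lists. X 1725124 (score 285) had Ser2P in both lines and dRing. In S2-AbdA cells X 16350637 (score 253) had GAF and a Ser2P peak of 2232 bp. X 6439962 (score 244) had GAF and dRing of score 9.13 there, and X 21151859 (score 243) had GAF, dRing of score 19.9 and a Ser2P peak of 247 bp. X 2867597 (score 281) had GAF of score 36.1 and lay 17441 bp from the nearest excluding peak. The only one on an autosome, 2L 10544682 to 10545137 (score 295), had an S2-AbdA Rpb3 peak and nothing else, and its nearest excluding peak was HA-AbdA at 14833 bp. X 663841 (score 239.6) likewise had Rpb3 in both lines alone.

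M1BP in S2-AbdA cells lay at few sites but with high scores. It overlapped 60 sites (3.76%, interval 2.88 to 4.82%), against a background of 37.0%. That background holds peaks that the rule removed for M1BP in S2 cells. The share was 7.34% at Rpb3 peaks with HA-AbdA alone and 1.80% with GAF alone. The interval of the GAF group (0.781 to 3.52%) overlapped that of the sites. The 55 M1BP peaks concerned had a median score of 128 in the S2-AbdA list, against 54.7 for the M1BP peaks of that list with an S2 counterpart. None of them overlapped an S2 M1BP peak, and the nearest S2 M1BP peak was a median of 2408 bp away. S2-AbdA M1BP peaks without S2 counterpart scored a median of 77.6 at the other Rpb3 peaks and 24.2 off Rpb3. The 55 peaks were wide, with a median of 819 bp against 503 bp. Those without S2 counterpart elsewhere had 667 bp at the other Rpb3 peaks and 631 bp off Rpb3. By quintile of Rpb3 score, M1BP lay at 5 of 673 sites in the lowest, at 24 of 105 in quintile 4 (22.9%) and at 5 of 81 in the highest (6.17%). Among the other Rpb3 peaks these shares were 17.1%, 61.1% and 44.1%. The highest-scoring examples on Rpb3 were X 6169950 to 6170948 (M1BP score 279), 2R 17368271 to 17368821 (M1BP score 103, with GAF) and 2L 21162707 to 21163205 (M1BP score 24.0).

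Polycomb factors were rare at the sites in S2-AbdA cells. dRing overlapped 64 (4.01%, interval 3.10 to 5.10%, background 19.2%), and E(z) overlapped 10 (0.627%, 0.301 to 1.15%, background 21.0%). The background holds peaks that the rule removed for these factors in S2 cells. Among Rpb3 peaks with HA-AbdA, M1BP or GAF alone, the dRing shares were 7.56%, 9.81% and 17.8% and the E(z) shares 2.83%, 1.72% and 6.08%. For E(z) the interval of the M1BP group (0.921 to 2.93%) overlapped that of the sites. The dRing peaks there were low, with a median score of 7.54 against 19.0 for dRing peaks with an S2 counterpart, and their median width was 292 bp. S2-AbdA dRing peaks without S2 counterpart were low elsewhere too, at 8.53 on the other Rpb3 peaks and 7.86 off Rpb3. dRing lay at 25.9% of sites in the highest quintile of Rpb3 score and 1.04% in the lowest. Among the other Rpb3 peaks the share was also higher at the top, with 35.3% against 14.8%. Of the sites with dRing, 37 of 64 also had S2-AbdA GAF (57.8%, background 72.7% over all Rpb3 peaks with dRing). Of the 10 E(z) sites 7 had GAF, where the background was 65.4%. The E(z) site with the highest Rpb3 score was 3L 6393411 to 6393962 (score 183), where the S2-AbdA lists held Rpb3, GAF and dRing as well, and which lay 18590 bp from the nearest excluding peak. At 2L 18121378 to 18122106 (score 86.5) Rpb3, GAF and E(z) lay together in S2-AbdA cells.

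Taking the 7 lists at once, 360 sites (22.6%, background 7.01%) had no peak of any of them and were thus listed for Rpb3 in S2 cells alone. Their median score was 13.2. A further 288 had S2-AbdA Rpb3 and no other peak (18.1%, background 8.58%, median score 28.6). Rpb3 with Ser2P in S2-AbdA cells and no other peak was found at 222 sites (13.9%, background 4.89%), and Ser2P in S2-AbdA cells alone at 206 (12.9%, background 3.18%). Rpb3 with GAF made up 142, below its background (8.90% against 10.3%), and Rpb3 with Ser2P of both lines 95 (5.96%, background 2.33%). The rule bears on these shares, since it leaves out every peak with these factors in S2 cells. These 6 combinations held most of the sites.

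**Figure D4:**
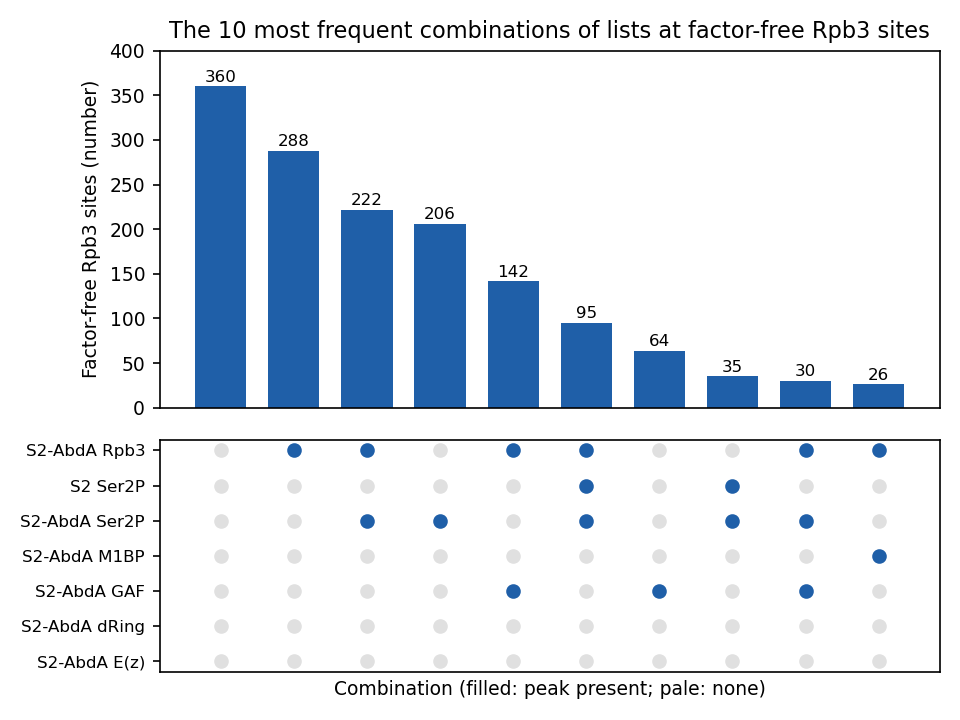
Number of factor-free Rpb3 sites with each of the 10 most frequent combinations of the 7 lists. Filled dots under a bar name the lists with a peak; 360 sites have none and 288 have S2-AbdA Rpb3 alone.

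The sites were also grouped by their distance to other polymerase. The nearest Rpb3 peak that was not factor-free lay within 1 kb of 573 sites (35.9%), between 1 and 5 kb from 628 and farther from 394. Ser2P in S2-AbdA cells overlapped 51.8% of the nearest group (interval 47.7 to 56.0%), 39.0% of the middle one (35.2 to 43.0%) and 27.7% of the farthest (23.3 to 32.4%). GAF stood at 17.8% (14.8 to 21.2%) in the nearest, 17.2% (14.3 to 20.4%) in the middle and 25.1% (20.9 to 29.7%) in the farthest group. For GAF the interval of the nearest group overlapped both others, and only those of the middle and farthest groups were apart. The share with S2-AbdA Rpb3 was 57.6%, 53.3% and 57.6%, and median scores were 20.3, 18.6 and 20.6, so neither followed the distance. Median site width did fall with distance, at 559 bp, 503.5 bp and 431.5 bp. A wider site has more bases with which to touch a list, and the part of width in the Ser2P shares was not tested.

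Of the 5 excluding lists, HA-AbdA had the smallest median gap to the sites. It was 1927 bp, and 294 sites (18.4%) had an HA-AbdA peak within 500 bp. The median gap was 3661 bp to M1BP, 5783 bp to GAF, 6781 bp to E(z) and 15613 bp to dRing. This order was also that of list length on the arms. HA-AbdA had 10312 peaks there, M1BP 5719, GAF 5407, E(z) 4309 and dRing 3061. No background gap was computed, so the gaps are not read as a trait of the sites. An excluding peak of any list lay within 1 kb of 739 sites (46.3%), and 174 sites had none within 5 kb.

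Some sites lay in runs. With gaps of up to 10 kb joined, the sites formed 1043 clusters, of which 743 were single sites and 27 held 5 or more. Sites in these 27 had S2-AbdA Rpb3 in 40.8% of 211 cases (interval 34.1 to 47.7%), and single sites in 61.0% (57.4 to 64.5%). Their median scores were 17.6 and 21.2, and this share followed the score. The 211 also include the 33 sites of the largest cluster, described next. The largest cluster, 3L 2786202 to 2861696, held 33 sites among 53 S2 Rpb3 peaks over 75.5 kb, and 2 of the 33 had an S2-AbdA Rpb3 peak. Their scores ran from 8.91 to 35.1. The S2-AbdA list had 9 Rpb3 peaks in the whole cluster, and 6 of the 33 sites overlapped S2-AbdA Ser2P.

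The cluster on chromosome 4, at 533724 to 576937, held 18 of 21 Rpb3 peaks, of which 8 had S2-AbdA Rpb3 and 9 had S2-AbdA Ser2P. Another cluster, X 6493892 to 6541014, held 16 sites, began with the highest-scoring one and had S2-AbdA Rpb3 at 3. The clusters at 2R 6397370 to 6420420 and 3R 7417949 to 7443193 held 11 and 10 sites, of which 5 and 4 had S2-AbdA Rpb3. The 2R cluster had S2-AbdA Ser2P at 6 sites and the 3R cluster at 0 of 10.

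**Figure D5:**
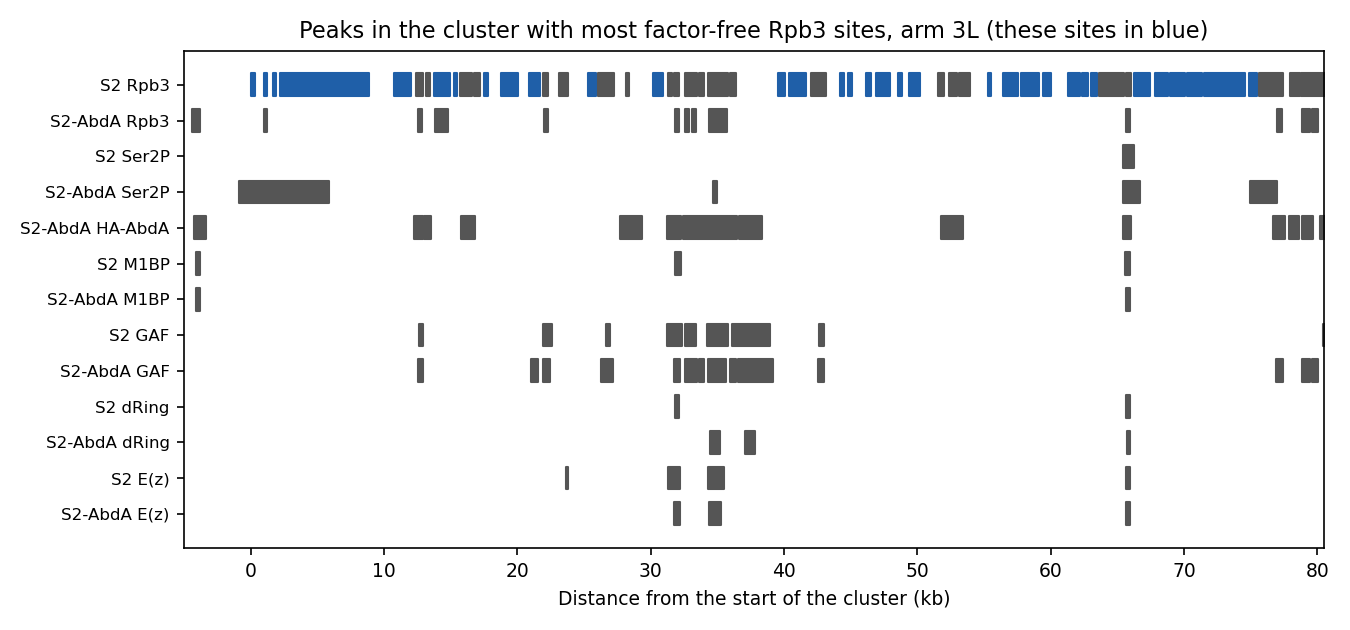
Peaks of the 13 lists over the cluster on 3L with most factor-free sites, drawn to scale against distance from its start in kb. Of the 33 sites (blue) 2 overlap an S2-AbdA Rpb3 peak, and the 9 HA-AbdA peaks within the cluster lie between sites. The flanks of the cluster are drawn as well.

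The widest sites were long runs of low Rpb3 score. The widest, 3R 24346684 to 24359518, covered 12835 bp (score 18.7) within an S2-AbdA Ser2P domain of 22164 bp. Only its end overlapped S2 Ser2P, in a domain of 7957 bp. The next were 3L 6197154 to 6204985 (7832 bp, score 10.6) and 3L 2788413 to 2795098 (6686 bp, score 10.0), the latter in the largest cluster. Neither of these had an S2-AbdA Rpb3 peak, and both overlapped S2-AbdA Ser2P.

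Sites with Ser2P in S2 cells alone were few, with a median score of 22.6. The highest-scoring of the 7 were 3L 15004213 (score 36.1, with S2-AbdA Rpb3 and GAF) and 3L 6196324 (score 29.5, with no other peak). Next came 2R 1619005 (score 23.4, with S2-AbdA Rpb3 and dRing), which overlapped only the end of an S2 Ser2P domain of 10457 bp. Of the 5 highest-scoring sites with Ser2P in S2-AbdA cells alone, 2L 9125542 (score 226) and 3R 1149237 (score 226) had short Ser2P peaks of 307 and 247 bp, and 3L 13473272 lay on its 6081 bp domain. Among the 5 strongest sites with Ser2P in both lines, 3R 25692565 to 25693601 (score 223), lay on an S2-AbdA Ser2P domain of 10364 bp.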

How the data were processed

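ChIP-seq peak lists of S2-DRSC cells and S2-DRSC-HA::AbdA cells were used. Per the submitters' processing notes, BWA 0.7.12 and MACS2 were used on build dm3. The sources used here do not give the settings or how replicates were combined. The authors deposited a score with each peak, which has no stated unit and served only for ranking within its list. Ser2P peaks are named as broad peaks, per the peak names in the deposited files. The genome at hand was Release 6, so no gene, sequence or motif was assigned, and positions are dm3, 1-based.

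Sites were found by overlap of at least 1 bp in Python 3.11.15 with pandas 2.3.3, numpy 2.4.6 and scipy 1.17.1. Counts of overlaps were also made with bedtools 2.31.1, and 0 of 24 such counts differed. The code was tested on 1000 simulated peaks. No test was run. The members and lists were chosen with earlier results of these data known. Named sites were the highest-scoring of each class, the 3 widest, the 5 largest clusters and those nearest the rule's edge. The HA control and 6 input samples had no list used here.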

Additional observations from a re-analysis of the deposited data

How the results depend on the processing

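No paired analysis was possible because the lists hold both replicates of a group together. Leaving out a replicate was not possible for the same reason, and read depth is unknown. Of 51 alternative values, 27 stayed within the main 95% interval, or within 1.5 times the main count, and 24 moved. The 27 include values that could not move. With lists of equal length, S2 Ser2P, S2-AbdA M1BP and S2-AbdA E(z) kept their main values, since these lists were already the shorter of the 2 lines. The cause of the moves was not tested. Shares are of factor-free sites, and Rpb3, M1BP, GAF, dRing and E(z) name S2-AbdA lists.

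Background is the share over all Rpb3 peaks of the arms in the same setting. Where an overlap had to cover 50% of the shorter peak, Rpb3 stood at 59.4% (background 78.5%) and S2 Ser2P at 7.70% (background 13.1%). With peak centres within 250 bp in place of overlap there were 4504 sites. Rpb3 stood at 61.7% (background 71.8%), S2 Ser2P at 3.53% (5.42%) and S2-AbdA Ser2P at 9.97% (11.7%). M1BP stood at 2.86% (background 19.4%), dRing at 5.95% (14.1%) and E(z) at 1.47% (14.3%). With the higher-scoring 50% of each list there were 992 sites. Rpb3 stood at 72.2% (background 76.8%), S2 Ser2P at 1.21% (2.18%) and S2-AbdA Ser2P at 12.9% (18.4%). M1BP stood at 5.65% (background 33.3%), GAF at 22.9% (36.4%) and E(z) at 1.41% (8.87%). With no excluding peak within 500 bp, Rpb3 stood at 52.8% and S2 Ser2P at 8.46%. Sites also free of M1BP, GAF, dRing and E(z) in S2-AbdA cells had Rpb3 at 50% and S2-AbdA Ser2P at 46.1%, and the 4 excluded shares have no value there. With lists of equal length, Rpb3 stood at 60.7% of 1408 sites. S2-AbdA Ser2P stood at 17.4% (background 19.7%), GAF at 7.52% (32.2%) and dRing at 2.19% (13.7%). On the arms 2L, 2R, 3L and 3R alone, an alternative chosen after seeing the data, none of the 8 values moved.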
